A study of Mus musculus with 12 samples.

Results

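The genes of the mitochondrial respiratory chain, complexes I to V, were followed in the lungs of newborn mice. They were taken by symbol, as every gene of the array's platform table whose name begins with Nduf (complex I), Sdh (complex II), Uqcr (complex III), Cox4, Cox5, Cox6, Cox7 or Cox8 (complex IV), or Atp5 (complex V). This gave 93 of 22180 named genes, with 42 in complex I, 8 in complex II, 8 in complex III, 17 in complex IV and 18 in complex V. Of the 93, 70 encode subunits, 12 are assembly factors (Ndufaf and Sdhaf), 9 are tissue isoforms or paralogues (Cox4i2, Cox6a2, Cox6b2, Cox7a1, Cox7a2l, Cox7b2, Cox8b, Cox8c and Ndufa4l2) and 2 are pseudogenes. Another 9 symbols, Cox6c, Uqcr10 and Ndufs6 among them, occur only on transcripts that carry several symbols and have no value here, and none of the 13 subunits encoded by mitochondrial DNA was found on the arrays by name. Ndufa4, which carries a complex I name, is now placed with complex IV, and was kept where its symbol put it.

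Lung RNA, from the right superior lobe, was hybridized to 12 Affymetrix mouse gene arrays, 1 for each mouse, in 4 groups of 3 mice. Wild type pups breathed room air (WT RA) or 75% oxygen (WT HO), and Sphk1-/- pups, called SK here, breathed room air (SK RA) or 75% oxygen (SK HO), in both cases for 7 days from postnatal day 1. Sphk1 encodes sphingosine kinase 1, which makes the signaling lipid sphingosine-1-phosphate. The study's methods say that the knockout had been crossed to C57BL/6 for only a few generations and that the WT mice shared that mixed background, that dams were moved between air and oxygen, and that lungs were perfused with saline. All values are log2 expression on the deposited scale, and levels are compared between mice and never between genes. A gene is called where the limma test over all 41345 transcripts gave a Benjamini-Hochberg adjusted p under 0.05, and errors of differences are standard errors (SE).

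The respiratory chain sits in the inner mitochondrial membrane. Complex I (NADH dehydrogenase) and complex II (succinate dehydrogenase) pass electrons to ubiquinone, complex III hands them to cytochrome c, complex IV (cytochrome c oxidase) gives them to oxygen, and complex V (ATP synthase) makes ATP from the proton gradient that the pumping complexes build. Several complex IV subunits exist as isoforms that mark tissues: Cox6a2, Cox7a1 and Cox8b are the forms of heart and skeletal muscle, of which Cox7a1 and Cox8b are also known from brown fat, and Cox4i2 is a form found mainly in lung, where it is linked to oxygen sensing.

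The targeted gene, Sphk1, was not lower in SK than in WT lungs in room air. Its log2 values were 5.37, 4.90 and 5.40 in WT RA, 5.59, 5.78 and 5.84 in SK RA, 6.79, 7.50 and 7.04 in WT HO and 5.70, 6.28 and 5.57 in SK HO, and since no source used here places its probes against the deletion, these values do not check the genotype and SK stands for the libraries labelled so. The 3 Y-linked genes measured gave a high score on SK HO 1, SK HO 2, SK RA 1 and WT RA 3 (2.31 to 2.64) and a low one on the other 8 arrays (-1.43 to -1.02), although the methods name male mice. All WT HO arrays were low, so this score was unbalanced between WT HO and SK HO and between the hyperoxia responses of the genotypes. Arrays SK RA 1 and SK HO 1 stood apart, with medians over all transcripts of 4.99 and 4.89 against 4.76 to 4.85 on the other 10. SK RA 1 also had the highest fat cell score (0.98) and the highest cardiac muscle score (0.80). Its Ucp1, the uncoupling protein of brown fat, was at 9.74 against 3.69 to 6.53 elsewhere. WT HO 2 had the next highest fat cell score (0.86).

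Hyperoxia raised 17 of the 93 genes in WT mice and lowered 1, Cox4i2. The median difference between WT HO and WT RA was 0.28 over the 93 genes against 0.01 over all transcripts, and 77 of 93 estimates were positive (51% of all transcripts). Over all transcripts 8.58% were called higher and 6.35% lower, and over the 22180 named genes 12.1% and 9.46%. The 17 called higher are 18.3% of the 93 and 1 called lower is 1.08%. Among the 5589 named genes at or above the median level of the 93, 20.1% were called higher and 16.4% lower with a median of 0.09. Of the 47 members at that level, 8 (17%) were called higher and 0 lower, with a median of 0.28. A call higher was thus about as common among these members as among all named genes of that level, while a call lower was not. The groups did not overlap in 50 of 93 genes with WT HO higher and in 4 with WT HO lower. The shares over all transcripts were 18.9% and 15.4%. Among the 5589 named genes at that level the counts were 2158 higher and 1544 lower, and among the 47 members 28 and 1. Estimates were positive for 56.6% of the former and 93.6% of the latter.

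Hyperoxia raised 6 of the 93 genes in SK mice (Cox5a, Cox6b2, Atp5k, Ndufa10, Cox7b and Cox7a2) and again lowered 1, Cox4i2. The median difference was 0.25 against 0.00 over all transcripts, with 78 of 93 estimates positive (49.5% of all transcripts). Over all transcripts 1.02% were called higher and 1.32% lower, over the named genes 1.57% and 2.01%, and over the named genes at the level set above 2.86% and 3.7%. The groups did not overlap in 34 of the 93 with SK HO higher and in 5 with SK HO lower, against 8.03% and 9.1% of all transcripts. Among the 5589 named genes at the level set above the counts were 957 higher and 825 lower, and among the 47 members 23 and 2. Estimates were positive for 54.6% of the former and 91.5% of the latter. Estimates were positive in both genotypes for 71 of 93 genes (27.7% of all transcripts) and negative in both for 9, and 3 genes, Cox5a, Cox6b2 and Ndufa10, were called higher in both (0.624% of all transcripts). No array is shared between these comparisons, and across the 93 genes the estimates had a Pearson correlation of 0.66 (0.65 without Cox6a2 and Cox4i2, 0.19 across all transcripts), a description over genes that share arrays and are not independent.

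The counts changed when single lungs were left out. In WT there were 17 genes higher over all arrays. The count was 5 without WT RA 1, 10 without WT RA 2, 10 without WT RA 3, 10 without WT HO 1, 7 without WT HO 2 and 8 without WT HO 3, and 14 to 20 without any 1 SK array. The SK count was 9 without SK HO 1, 3 without any 1 of the other 5 SK arrays, and 4 to 5 without any 1 WT array, and the SK median was 0.18 without SK RA 1 and 0.34 without SK HO 1. Counts over all transcripts changed too. The WT count higher was 3547 with all arrays and 2401 to 2840 without any 1 WT array. The SK count higher was 422 with all arrays, 534 without SK HO 1 and 198 to 285 without any 1 of the other 5 SK arrays. The calls of Cox6a2, Cox5a, Cox6a1, Ndufa6, Ndufaf4 and Cox4i2 held without each of the 12 arrays in turn. In a lung, fewer cells of a type and less RNA per cell cannot be told apart.

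**Figure D1:**
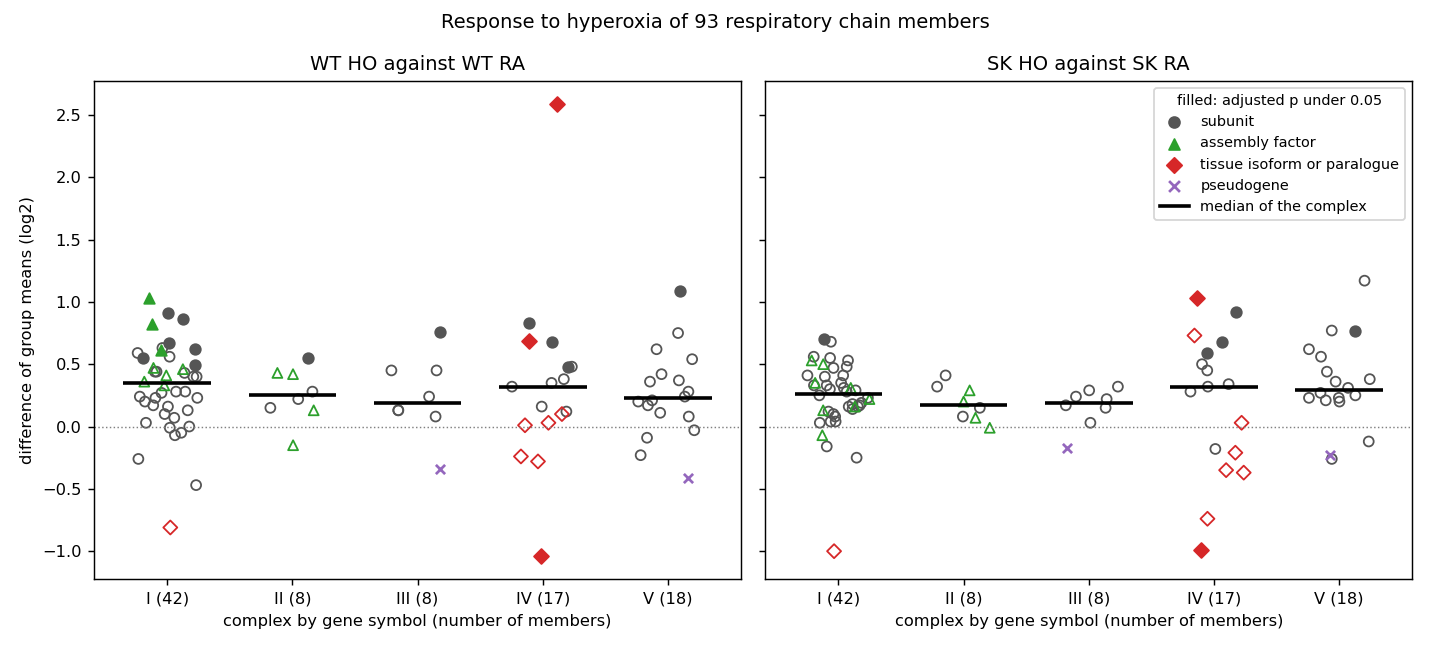
Differences between hyperoxia and room air (log2, y axis) for the 93 genes by complex (x axis), in WT mice (left) and SK mice (right); each symbol is a gene, filled where the adjusted p is under 0.05, and black lines are medians of all members of a complex. Medians run from 0.19 to 0.35 in WT and from 0.17 to 0.32 in SK, and Cox6a2 (2.59 in WT) and Cox4i2 (-1.04 and -0.99) lie outside the bulk of the genes.

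Promoter sequences are shown for 4 genes called higher in WT HO and for Atp5k, because several of them hold an element known from respiratory chain genes. NRF1 (nuclear respiratory factor 1) and GABPA are transcription factors known for binding in front of respiratory chain genes. RefSeq promoter windows of GRCm38.p6, 250 bases before to 50 after a start site, were at hand for 76 of the 93 genes (81 windows). Printed here are the 250 bases before the start site of Cox6a1 at chr5:115348959-115349208 (minus strand), Ndufa6 at chr15:82354292-82354541 (minus strand), Ndufaf4 at chr4:24897833-24898082 (plus strand) and Cox5a at chr9:57520982-57521231 (plus strand), which are the window holders among the 5 genes called higher in WT HO with the smallest adjusted p, and of Atp5k at chr5:108434400-108434649 (minus strand), whose response differed by genotype. Capitals mark an exact match, on either strand, to the core of NRF1 (GCATGCG) or of GABPA (CCGGAAG).
Cox6a1: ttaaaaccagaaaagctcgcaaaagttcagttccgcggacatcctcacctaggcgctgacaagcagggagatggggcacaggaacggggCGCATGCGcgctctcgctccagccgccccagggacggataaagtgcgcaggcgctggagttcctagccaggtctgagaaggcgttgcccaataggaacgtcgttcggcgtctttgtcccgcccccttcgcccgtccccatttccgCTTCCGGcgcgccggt
Ndufa6: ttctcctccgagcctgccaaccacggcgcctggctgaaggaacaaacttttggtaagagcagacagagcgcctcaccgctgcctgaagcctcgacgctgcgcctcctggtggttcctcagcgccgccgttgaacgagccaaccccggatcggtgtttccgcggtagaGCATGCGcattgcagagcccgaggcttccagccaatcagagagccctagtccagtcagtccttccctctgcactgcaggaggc
Ndufaf4: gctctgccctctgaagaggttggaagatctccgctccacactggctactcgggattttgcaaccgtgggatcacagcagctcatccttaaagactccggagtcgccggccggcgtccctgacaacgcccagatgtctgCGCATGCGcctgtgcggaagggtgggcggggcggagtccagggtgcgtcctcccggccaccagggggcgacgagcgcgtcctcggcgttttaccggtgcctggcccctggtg
Cox5a: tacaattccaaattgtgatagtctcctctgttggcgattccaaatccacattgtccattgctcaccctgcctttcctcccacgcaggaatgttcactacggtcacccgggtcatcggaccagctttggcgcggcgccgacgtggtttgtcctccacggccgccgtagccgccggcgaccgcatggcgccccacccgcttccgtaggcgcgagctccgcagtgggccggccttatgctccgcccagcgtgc
Atp5k: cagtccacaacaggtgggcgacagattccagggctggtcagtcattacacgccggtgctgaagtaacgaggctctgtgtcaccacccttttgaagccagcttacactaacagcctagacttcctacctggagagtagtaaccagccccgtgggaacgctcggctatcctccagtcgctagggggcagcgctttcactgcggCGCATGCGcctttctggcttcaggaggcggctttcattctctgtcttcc

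In the printed stretches the NRF1 core stood in front of Cox6a1, Ndufa6, Ndufaf4 and Atp5k, the GABPA core in front of Cox6a1, and neither in front of Cox5a. In Cox6a1, Ndufaf4 and Atp5k the NRF1 core matched both strands at overlapping letters and was counted once per window. In full windows of 300 bases, 16% of the 81 member windows held the NRF1 core against 3.58% of 32851 windows in the table, and 27.2% held the GABPA core against 8.86%. Cores of YY1 (ATGGCGG), another activator of these genes, stood in 16% against 4.05%, and of ERRalpha (AAGGTCA), an orphan receptor, in 7.41% against 4.72%. Among the 13 windows of genes called higher in WT HO, 5 held the NRF1 core, 3 the GABPA core, 1 the YY1 core and 0 the ERRalpha core. A match describes letters and is not a bound site.

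The share of genes called higher in WT HO was 21.4% in complex I, 12.5% in complex II, 12.5% in complex III, 29.4% in complex IV and 5.56% in complex V, against 12.1% of named genes and 20.1% of those at the level set above. In SK HO it was 2.38% in complex I, 0% in complexes II and III, 23.5% in complex IV and 5.56% in complex V, against 1.57% and 2.86%. Complex I in WT thus lay near the share at the level set above. The equal shares of complex V lay below both backgrounds in WT and above both in SK, but rest on 1 gene in each genotype. The WT shares of complexes II and III and the SK share of complex I also rest on 1 gene each. Of the 5 genes called higher in complex IV in WT, 2 were the isoforms Cox6a2 and Cox6b2.

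Complex I, the largest complex with its NADH-oxidizing arm and membrane arm, had 9 of 42 genes called higher in WT HO and 0 lower, with a median of 0.35. The 33 subunits had a median of 0.27, of which 6 were called (Ndufa6, Ndufs7, Ndufb9, Ndufa10, Ndufc1 and Ndufa12). In SK mice 1 subunit, Ndufa10, was called and the subunit median was 0.28. The 6 core subunits, which carry the redox centres, and the 27 accessory subunits had WT medians of 0.26 and 0.27.

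Ndufa6 is an accessory subunit at the base of the matrix arm. Its log2 values were 8.38, 8.41 and 8.59 in WT RA and 9.29, 9.42 and 9.24 in WT HO, and 8.36, 8.64 and 8.52 in SK RA against 8.47, 9.05 and 8.82 in SK HO. All WT HO lungs lay above every other lung, while SK HO 1 lay within the SK RA range. The difference was 0.86 ± 0.16 (SE, 1.81-fold, adjusted p = 0.00328) in WT and 0.28 ± 0.16 (adjusted p = 0.497) in SK, and the test of the difference between these responses did not pass (-0.58 ± 0.22, adjusted p = 0.193).

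Ndufa10, another accessory subunit, moved in both genotypes. Its values were 8.54, 8.89 and 8.71 in WT RA, 9.14, 9.19 and 9.28 in WT HO, 8.29, 8.48 and 8.59 in SK RA and 9.05, 9.33 and 9.06 in SK HO. No hyperoxic lung overlapped a room air lung. The differences were 0.49 ± 0.14 (adjusted p = 0.0365) and 0.70 ± 0.14 (adjusted p = 0.0263), and both calls depended on single arrays, being lost without any 1 of 6 arrays in WT and 5 in SK. The other called subunits, chosen after their values were seen, had WT differences of 0.55 (Ndufc1), 0.62 (Ndufa12), 0.67 (Ndufs7, which holds the last iron-sulfur cluster before ubiquinone) and 0.91 (Ndufb9). Ndufb11 had the lowest estimate of the complex I subunits at -0.47 (adjusted p = 0.239).

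The complex I assembly factors, which build the enzyme and are not part of it, had a median of 0.47 over 8 genes in WT, above that of the subunits of each complex (0.24 to 0.38), with all 8 estimates positive and 3 called (Ndufaf4, Ndufaf5 and Ndufaf3). In SK the median was 0.26 with 7 of 8 positive and 0 called by limma (3 at an unadjusted p under 0.05). Ndufaf4 was 6.10, 6.51 and 6.34 in WT RA, 7.36, 7.46 and 7.24 in WT HO, 6.32, 6.30 and 6.28 in SK RA and 6.37, 7.31 and 6.80 in SK HO. The WT groups lay far apart, while the SK HO lungs spread from the room air level to the WT HO level. The differences were 1.03 ± 0.20 (2.05-fold, adjusted p = 0.00532) and 0.53 ± 0.20 (adjusted p = 0.251), and their own difference, -0.51 ± 0.29, had an adjusted p of 0.425. The 4 Sdhaf factors of complex II had WT differences between -0.15 and 0.43, none called.

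Complex II has only 4 subunits, and their estimates were all positive in both genotypes. Sdhb, the iron-sulfur subunit, was 7.75, 7.85 and 7.79 in WT RA and 8.22, 8.45 and 8.37 in WT HO, and 7.51, 7.68 and 7.79 in SK RA against 7.72, 8.25 and 7.98 in SK HO. It separated WT lungs by oxygen (0.55 ± 0.15, adjusted p = 0.027) but the SK groups overlapped at SK HO 1 (0.32 ± 0.15, adjusted p = 0.36), and the WT call was lost without any 1 of 5 WT arrays. Sdha, the flavoprotein, and the membrane anchors Sdhc and Sdhd had WT differences of 0.22, 0.15 and 0.28 and SK differences of 0.15, 0.08 and 0.41, none called.

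In complex III, 1 of 8 genes was called in WT. This was Uqcrq, a small subunit chosen after its values were seen, at 5.78, 6.15 and 5.99 in WT RA and 6.53, 7.05 and 6.63 in WT HO, without overlap (0.76 ± 0.19, adjusted p = 0.0172). The 7 subunits all had positive estimates, with medians of 0.24 in WT and 0.22 in SK, where 0 were called by limma (1 at an unadjusted p under 0.05). The core proteins Uqcrc1 and Uqcrc2 had WT differences of 0.13 and 0.45, and the Rieske iron-sulfur protein Uqcrfs1 0.13.

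Complex IV held both extremes in WT, Cox6a2 and Cox4i2, while in SK the highest estimate was that of Atp5mpl of complex V (1.17) and the lowest that of Ndufa4l2 (-1.0). Its 9 ordinary subunits had a median of 0.38 in WT and 0.45 in SK, with 3 called in each (Cox5a, Cox6a1 and Cox8a in WT, Cox5a, Cox7b and Cox7a2 in SK) and no negative estimate in WT. Its 8 isoforms went in different ways and are described after them.

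Cox5a, a subunit on the matrix side of the enzyme, rose in both genotypes. It was 8.28, 8.63 and 8.27 in WT RA, 9.19, 9.34 and 9.14 in WT HO, 7.98, 7.95 and 8.10 in SK RA and 8.77, 9.14 and 8.88 in SK HO. Each hyperoxic lung lay above every room air lung of either genotype, and SK RA lay below WT RA. The differences were 0.83 ± 0.14 (1.78-fold, adjusted p = 0.00243) and 0.92 ± 0.14 (1.9-fold, adjusted p = 0.00786), and the room air difference by genotype, -0.38 ± 0.14, did not pass (adjusted p = 0.286).

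Cox6a1 is the general form of subunit VIa. It was 11.13, 11.30 and 11.09 in WT RA, 11.79, 11.89 and 11.88 in WT HO, 10.97, 11.29 and 11.20 in SK RA and 11.32, 11.64 and 11.52 in SK HO. The WT HO lungs lay above all others, and SK HO lay just above SK RA. The difference was 0.68 ± 0.13 (1.60-fold, adjusted p = 0.00512) in WT and 0.34 ± 0.13 (adjusted p = 0.261) in SK. Cox8a rose in WT (0.48 ± 0.12, adjusted p = 0.0192) and was 0.50 ± 0.12 in SK (adjusted p = 0.0562, and 0.0494 with the replicate number as a block). The WT call of Cox8a was lost without any 1 of 4 WT arrays. Cox7b and Cox7a2 rose in SK (0.68 and 0.59, adjusted p = 0.041 and 0.0478). In WT they had 0.48 and 0.35, not called (adjusted p = 0.052 and 0.118), with no overlap of the groups. The tests of the difference between these responses did not pass (adjusted p = 0.713 and 0.597). The Cox7b call was lost in 10 and the Cox7a2 call in 11 of the 12 fits that left out 1 array.

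Cox6a2, the muscle form of the same subunit, showed the largest difference of the 93 genes. It was 6.34, 6.62 and 6.17 in WT RA, 9.16, 8.74 and 9.0 in WT HO, 6.26, 5.74 and 6.56 in SK RA and 6.57, 7.00 and 7.18 in SK HO. The WT HO lungs stood at 8.74 or more and every other lung at 7.18 or less, and SK HO lay above SK RA by a narrow gap. The difference was 2.59 ± 0.23 in WT (6.02-fold, adjusted p = 3.05e-05) and 0.73 ± 0.23 in SK (1.65-fold, adjusted p = 0.151). The responses differed by -1.86 ± 0.33 (adjusted p = 0.00727), and WT HO exceeded SK HO by 2.05 ± 0.23 (4.15-fold, adjusted p = 0.00043).

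Most muscle genes did not share the direction of Cox6a2, the WT estimate being positive for 2 of 12 cardiac and 3 of 12 skeletal muscle genes. Of the 12 cardiac muscle genes 3 (25%, Myl7, Myl4 and Sln) were called lower in WT HO and 1, Ankrd23, higher, with a median of -0.94. Of named genes at the level set above, 16.4% were called lower and 20.1% higher. The cardiac score was 0.18 to 0.35 in WT RA and -0.78 to -0.08 in WT HO. Ankrd23, a muscle ankyrin repeat gene, was 5.65, 5.02 and 5.63 in WT RA, 7.59, 7.27 and 7.61 in WT HO, 6.45, 6.13 and 5.98 in SK RA and 5.96, 6.25 and 6.28 in SK HO, so that it too rose in WT (2.06) and not in SK (-0.02), with a tested difference of -2.08 (adjusted p = 0.00147). Of 12 skeletal muscle genes 0 were called higher by limma (1 at an unadjusted p under 0.05) and 1, Ckm, lower, with a median of -0.12. In RefSeq the gene overlaps Itgad, an integrin gene, which was at 3.49 to 4.40 on all arrays, near the level of olfactory receptor transcripts (90th percentile 4.34). Itgax, an integrin of macrophages and dendritic cells that lies next to Itgad in RefSeq and was chosen after its values were seen, was 5.73, 5.98 and 5.60 in WT RA, 7.30, 7.26 and 7.51 in WT HO, 6.03, 6.72 and 6.91 in SK RA and 6.23, 6.70 and 6.85 in SK HO. It too was highest in WT HO, with a difference of 1.59 in WT and 0.04 in SK. Macrophage genes moved the same way, 6 of 10 (60%) being called higher in WT HO (median 0.99, score -0.70 to -0.39 in WT RA and 0.59 to 0.86 in WT HO). In SK HO 1 of 10 (10%) was called higher and 1 lower (score -0.60 to 0.02 in SK RA and -0.31 to 0.56 in SK HO). Named genes at the level set above were called higher in 20.1% in WT and 2.86% in SK, and lower in 3.7% in SK. The part of the macrophage genes in the Cox6a2 result was not tested.

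Cox4i2, the lung form of subunit IV, was the only gene of the 93 called lower by oxygen, and in both genotypes. It was 7.17, 7.41 and 7.36 in WT RA, 6.33, 6.11 and 6.38 in WT HO, 7.34, 7.29 and 7.37 in SK RA and 6.34, 6.23 and 6.47 in SK HO. All 6 hyperoxic lungs lay below all 6 room air lungs, with no separation by genotype. The differences were -1.04 ± 0.13 (2.06-fold lower, adjusted p = 0.000232) and -0.99 ± 0.13 (1.98-fold lower, adjusted p = 0.00245), and they differed by 0.05 (95% interval -0.33 to 0.44). Cox4i1, the general form, had differences of 0.12 (95% interval -0.26 to 0.51) and 0.32 (-0.06 to 0.71), neither called. Cox4i2 overlaps Bcl2l1 in RefSeq, an anti-apoptotic gene that rose by 1.53 in WT and was 0.46 in SK, so in WT these genes went in opposite directions. Of 10 endothelial genes 4 were called lower in each genotype (40%) and 6 were not called, with medians of -0.25 and -0.60. Named genes at the level set above were called lower in 16.4% in WT and 3.7% in SK. Endothelial estimates were positive for 3 genes in WT and 1 in SK. The endothelial scores were 0.14 to 0.51 over all room air lungs and -0.41 to -0.08 over all hyperoxic lungs. The part of these genes in the Cox4i2 result was not tested.

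**Figure D2:**
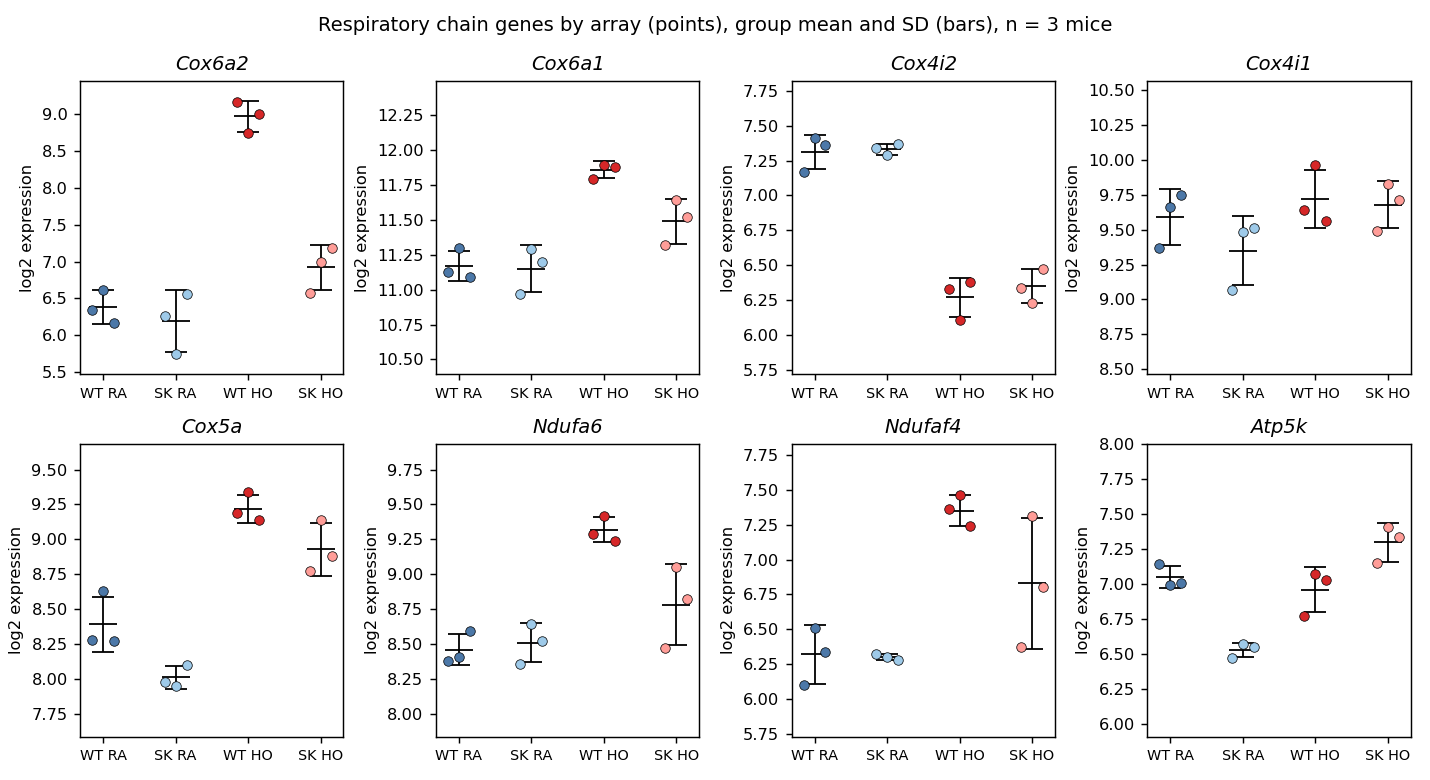
Log2 expression (y axis) of 8 respiratory chain genes in the 4 groups (x axis), with 1 point per mouse, group means as the middle bar and SD as whiskers (n = 3); every panel spans at least 2 log2 units. Cox6a2 is at 8.74 to 9.16 in WT HO and at 7.18 or less elsewhere, Cox4i2 lies at 6.47 or less in all hyperoxic lungs and at 7.17 or more in room air, and Atp5k is lowest in SK RA.

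Ndufa4l2, a paralogue of Ndufa4 known as a target of hypoxia-inducible factor, had the same direction as Cox4i2. It was 7.54, 7.69 and 7.50 in WT RA, 6.51, 6.75 and 7.03 in WT HO, 7.27, 8.15 and 8.08 in SK RA and 7.09, 6.24 and 7.19 in SK HO. The groups did not overlap in either genotype, but the differences of -0.81 ± 0.28 and -1.0 ± 0.28 had adjusted p = 0.0804 and 0.103. Ndufa4 had differences of 0.27 and 0.53 (adjusted p = 0.237 and 0.0751).

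Cox6b2, known mainly from testis, rose in both genotypes. It was 6.31, 6.70 and 6.27 in WT RA, 7.13, 6.85 and 7.36 in WT HO, 6.10, 6.31 and 6.33 in SK RA and 7.25, 7.33 and 7.26 in SK HO. No hyperoxic lung overlapped a room air lung. The differences were 0.69 ± 0.16 (adjusted p = 0.0138) and 1.03 ± 0.16 (2.04-fold, adjusted p = 0.00819), the first lost without WT RA 1, WT RA 3 or WT HO 3. Its general form Cox6b1 had 0.38 (adjusted p = 0.205) and 0.45 (adjusted p = 0.269). Cox7a2l, which helps join complexes III and IV into supercomplexes, had 0.10 in WT and -0.37 in SK (adjusted p = 0.73 and 0.252).

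The muscle and brown fat forms Cox8b and Cox7a1 were highest in 1 lung, SK RA 1. That lung had the highest fat cell score (0.98) and also the highest cardiac muscle score (0.80, next 0.40 on SK HO 3). The parts of fat and of heart muscle in these values were not tested. Cox8b was 4.31, 4.90 and 5.42 in WT RA, 3.92, 5.28 and 4.6 in WT HO, 6.88, 4.06 and 4.72 in SK RA and 4.82, 4.05 and 4.57 in SK HO. Cox7a1 was 6.08 on SK RA 1 and 4.70 to 5.34 on the other 11 arrays. The next highest were WT RA 3 for Cox8b and WT HO 2 for Cox7a1, where Ucp1 was 6.53 and 5.66. Their oxygen differences in SK were -0.74 and -0.21, and 0.09 and 0.19 without SK RA 1, none called. Cox7b2 and Cox8c lay at the level of olfactory receptor transcripts and are not read further.

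**Figure D3:**
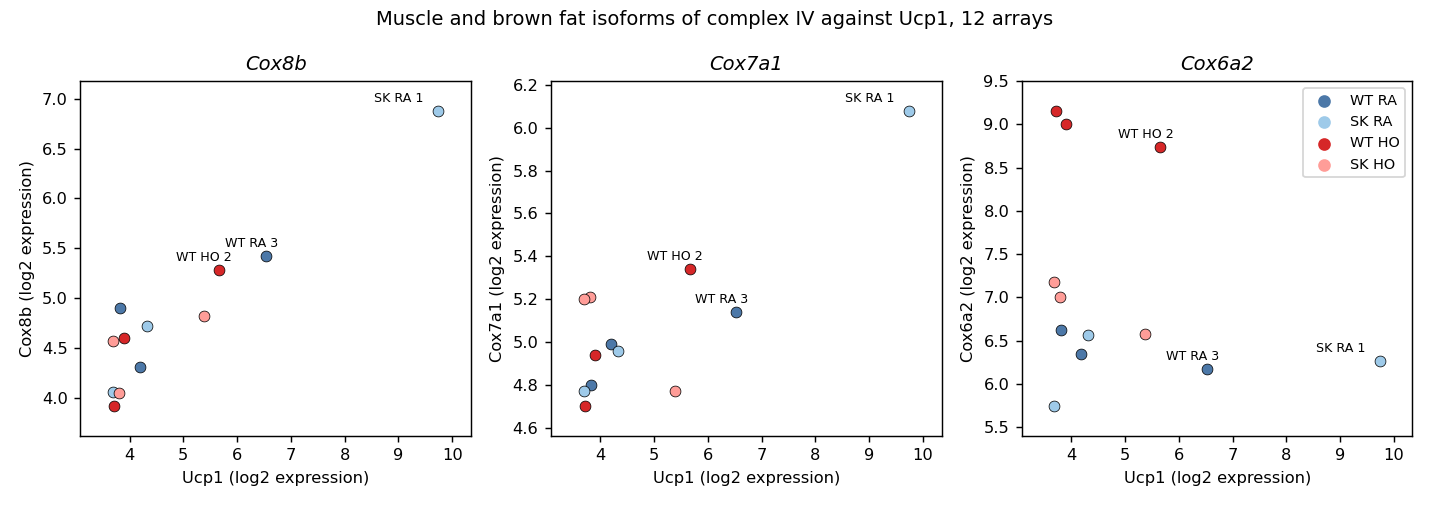
Log2 expression of Cox8b, Cox7a1 and Cox6a2 (y axes) against that of Ucp1 (x axis) on the 12 arrays, 1 point per mouse, coloured by group. SK RA 1 has Ucp1 at 9.74 and the highest Cox8b (6.88) and Cox7a1 (6.08), whereas Cox6a2 is high on the 3 WT HO arrays and 6.26 on SK RA 1.

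Complex V had 1 of 18 genes called in each genotype, with medians of 0.23 in WT and 0.29 in SK. In WT this was Atp5mpl, a small membrane subunit chosen after its values were seen, at 6.13, 6.40 and 6.38 in WT RA and 7.58, 7.15 and 7.45 in WT HO (1.09 ± 0.30, adjusted p = 0.0296). Its SK difference was 1.17 ± 0.30 (adjusted p = 0.0713). The 3 genes of the membrane ring subunit c, Atp5g1, Atp5g2 and Atp5g3, had WT differences of 0.21, 0.24 and 0.36 and SK differences of -0.26, 0.20 and 0.62, none called, and the catalytic subunit Atp5b had 0.37 and 0.38.

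Atp5k, which encodes subunit e of the membrane part and takes part in pairing ATP synthase units, was called higher with oxygen in SK mice, and its response differed between genotypes. It was 7.14, 6.99 and 7.01 in WT RA, 6.77, 7.07 and 7.03 in WT HO, 6.47, 6.57 and 6.55 in SK RA and 7.15, 7.41 and 7.34 in SK HO. The SK RA lungs lay below every other lung and the SK HO lungs above all others, by a narrow gap to WT RA 1, while the WT groups overlapped. The difference was -0.09 ± 0.13 in WT (adjusted p = 0.73) and 0.77 ± 0.13 in SK (1.70-fold, adjusted p = 0.00972), and the responses differed by 0.86 ± 0.18 (adjusted p = 0.0187). The call on that difference was lost without WT RA 1 (adjusted p = 0.0543).

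Between genotypes in room air, 0 of the 93 genes were called by limma in either direction, with 1 higher and 2 lower at an unadjusted p under 0.05, and 0 also by the ordinary residual variance (2 higher and 4 lower unadjusted). Over all transcripts 0.556% were called higher and 0.59% lower, and over the named genes 0.604% and 0.911%. The groups did not overlap for 3 of the 93 with SK RA higher and 10 with SK RA lower, against 10.2% and 8.63% of all transcripts, and 33 estimates were positive (51.5% of all transcripts). The median difference was -0.07, and 0.01 without SK RA 1. The smallest p values were those of Atp5k (-0.52 ± 0.13, adjusted p = 0.0872) and Cox5a for SK RA lower, and of Atp5g1 (0.31, adjusted p = 0.296) and Ndufv3 (0.28, adjusted p = 0.435) for SK RA higher. In hyperoxia 1 of 93 was called higher in WT, Cox6a2, and 0 lower by limma, with 1 lower, Atp5k, at an unadjusted p under 0.05 and 0 by the ordinary residual variance. Over all transcripts 2.92% were called higher and 2.82% lower, and over the named genes 4.36% and 4.38%. The groups did not overlap for 9 of the 93 with WT HO higher and 2 with WT HO lower, against 12.8% and 10.8% of all transcripts, and 66 estimates were positive (51.3% of all transcripts). The median was 0.10, and 0.01 without SK HO 1.

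The response itself differed by genotype for 2 of 93 genes, Cox6a2 and Atp5k, in opposite directions, where 2.19% of all transcripts and 3.39% of named genes had a larger SK response and 2.6% and 3.6% a smaller one. The median difference of the responses was -0.01, with 46 of 93 positive (47.3% of all transcripts). Of the 93 genes, 14 were called higher in WT but not in SK and 3 in SK but not in WT, and for all of these but Cox6a2 and Atp5k the test of the difference did not pass. Calls were also more frequent in WT over all transcripts, with 3547 higher in WT, 422 in SK and 258 in both.

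**Figure D4:**
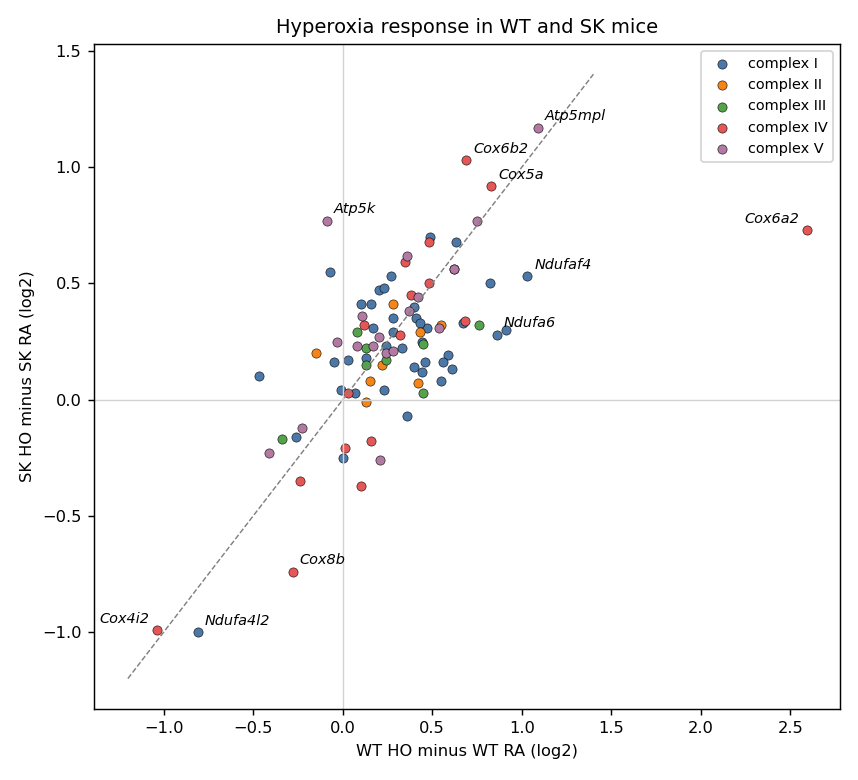
Hyperoxia response of the 93 genes in SK mice (y axis, log2) against that in WT mice (x axis, log2), 1 point per gene coloured by complex; the dashed line marks equal responses. Of the 93 points 71 lie in the upper right quadrant and 9 in the lower left, Cox6a2 lies far to the right (2.59 and 0.73) and Atp5k above zero only in SK (-0.09 and 0.77).

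The 93 genes also shared a level within each array. The mean over the genes, each relative to its mean over 12 arrays, was -0.21, -0.06 and -0.05 in WT RA, 0.11, 0.24 and 0.21 in WT HO, -0.30, -0.09 and -0.08 in SK RA and -0.11, 0.23 and 0.10 in SK HO. WT HO lay above WT RA without overlap, and SK HO 1 lay within the range of room air lungs. The lowest SK values were those of SK RA 1 and SK HO 1, the arrays with the high medians. Without both, the SK median difference was 0.27 with 5 genes called higher. Cytosolic ribosome genes scored -0.31 on SK RA 1 and -0.20 on SK HO 1, the lowest of their groups, and proteasome genes -0.40 and -0.21. The part of these arrays in the scores was not tested.

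**Figure D5:**
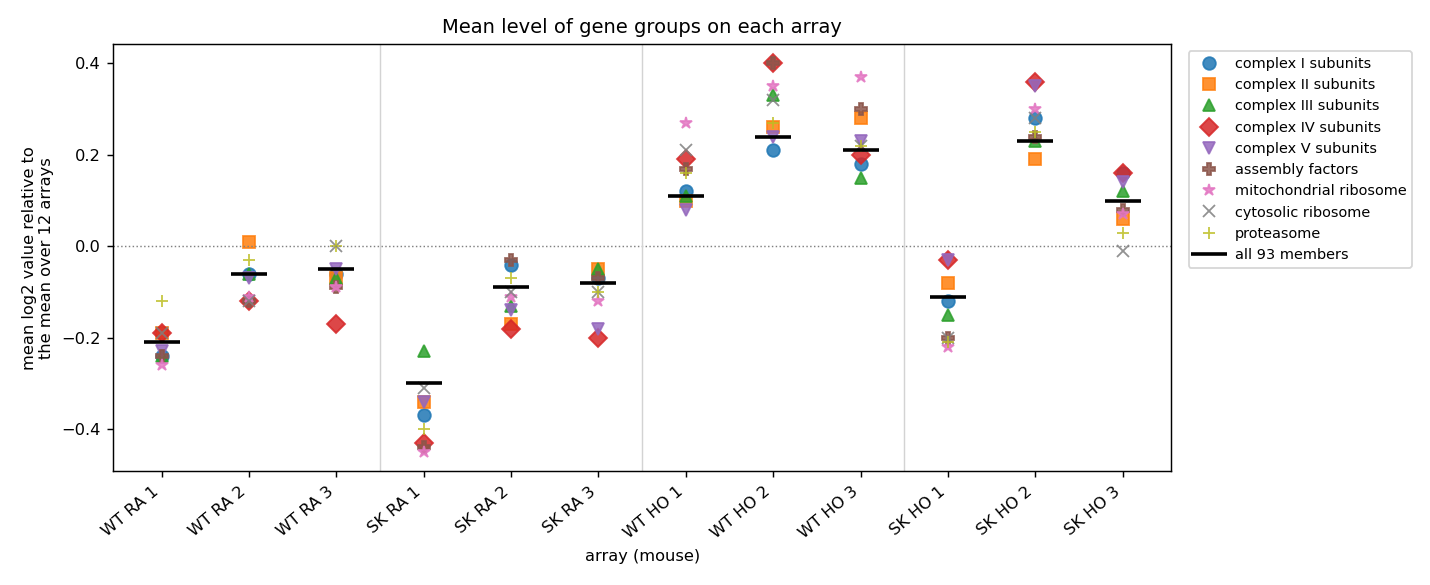
Mean log2 value of gene groups relative to their mean over 12 arrays (y axis) on each array (x axis), with a symbol per group and a black bar for all 93 members. The respiratory chain mean is 0.11 to 0.24 in WT HO and -0.21 to -0.05 in WT RA, and ribosome and proteasome genes follow the same order of groups, with SK RA 1 lowest.

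Other gene groups of mitochondria and of protein turnover also had positive medians in WT mice. The mitochondrial ribosome had 17 of 71 genes called higher and 0 lower (median 0.43), the cytosolic ribosome 8 of 64 and 0 (0.35), the proteasome 5 of 49 and 0 (0.25), assembly factors outside the symbol rule 7 of 36 and 0 (0.27, with Cox18 at 0.96 and Uqcc1 at 0.66), and the tricarboxylic acid cycle with pyruvate dehydrogenase 4 of 18 and 1 (0.28, with Mpc1, a pyruvate carrier, 1.11 and Idh3a 0.99). The shares called higher were 23.9%, 12.5%, 10.2%, 19.4% and 22.2% in that order. The backgrounds were 12.1% of named genes and 20.1% of those at the level set above. The cytosolic ribosome and the proteasome lay near or below both. The mitochondrial ribosome, the assembly factors and the cycle lay above the first background but near the second. In SK mice 1 gene of the mitochondrial and 2 of the cytosolic ribosome were called higher, and of the proteasome, the assembly factors and the cycle 0 by limma (15, 3 and 4 at an unadjusted p under 0.05). The WT median of the 93 genes, 0.28, lay within the range of these medians. Cyc1, the cytochrome c1 of complex III that the symbol rule leaves out, rose by 0.91 in WT (adjusted p = 0.00428), and cytochrome c itself, Cycs, was 0.46 (adjusted p = 0.108).

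Genes for fatty acid oxidation had 3 of 14 called higher (21.4%) and 3 lower in WT (median 0.11, with Acadl at 0.80 and Hadh at -0.96). Regulators of mitochondrial number had 2 of 16 called higher (12.5%) and 2 lower, with 12 of 16 estimates positive and a median of 0.23. Ppargc1a, the coactivator PGC-1alpha, was 5.83, 5.54 and 5.80 in WT RA and 6.72, 6.30 and 6.98 in WT HO, and 6.58, 5.98 and 5.77 in SK RA against 6.62, 7.29 and 6.88 in SK HO. The groups did not overlap in either genotype, with 0.94 ± 0.25 in WT (adjusted p = 0.0249) and 0.82 in SK (adjusted p = 0.13). Pprc1, a related coactivator, rose by 0.95, Hcfc1 and Gabpa fell by 0.71 and 0.72, and Nrf1 and Tfam had 0.50 (adjusted p = 0.0613) and -0.15 (adjusted p = 0.81). Markers of dividing cells fell in WT HO in all 9 measured genes (median -2.84, score 1.34 to 1.58 in WT RA and -1.63 to -1.51 in WT HO), while in SK 0 were called by limma (1 at an unadjusted p under 0.05, score -0.19 to 0.13 in SK RA and 0.04 to 0.29 in SK HO) and in room air all 9 were called lower in the SK lungs, and their part in the results above was not tested. Over the named genes 9.46% were called lower in WT HO against WT RA and 0.911% in SK RA against WT RA.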

How the data were processed

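RNA of 12 mouse lungs was measured on Affymetrix mouse gene arrays, 1 array per mouse. The log2 values per transcript were deposited by the authors, who made them in Partek Genomics Suite by robust multi-array averaging (background correction, quantile normalization and summarization of probes). No source used here names the genome build of the arrays. Precision is limited by the 12 arrays.

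Of 41345 transcripts, 23521 carry 1 gene symbol in the platform table, 1820 carry several and 16004 are not listed. Genes were named from transcripts with 1 symbol, and for the 10 members with several transcripts that with the highest mean was used. The members were matched to RefSeq (GRCm38.p6) by gene ID (93 of 93), and 29 of the 93 overlap another gene there, which an array may not tell apart.

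Differences were tested with limma 3.58.1 in R 4.3.3 (lmFit and eBayes on a mean for every group, two-sided, 8 residual and 3.247 prior degrees of freedom). Adjusted p values are Benjamini-Hochberg over the 41345 transcripts, called under 0.05. The fit was tested on simulated data. A score is the mean of a list's genes after each gene's mean over all arrays was subtracted. Named genes were, among members called in a comparison, the 5 with the smallest adjusted p in each direction. Where none was called, the 2 with the smallest p were named. Added were the isoform families, the complex II subunits and up to 2 genes per pathway list with the smallest p in WT. Ppargc1a, Nrf1, Tfam, Ucp1 and Sphk1 were also named. Other genes fall outside this rule, and only some are marked as chosen after their values were seen. Atp5h, named by the rule for WT HO lower than SK HO, had a difference of -0.23 (limma adjusted p = 0.429). The members and lists were chosen with earlier results of these data known. Of the 93, 4 lay under the 90th percentile of olfactory receptor transcripts (4.34), namely Atp5c1-ps, Cox7b2, Cox8c and Uqcrh-ps1, and 89 pass a filter at the 40th percentile of transcript means.

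The alternatives were the ordinary residual variance, an intensity trend with a robust prior, the filter on low values, centring on the median, further quantile normalization, a replicate block, the Y-linked, fat cell and cardiac scores as covariates, the mean over transcripts of a symbol, only the compared arrays, and each array left out. The SK RA and SK HO arrays of the same number deviated together (correlations of 0.40, 0.19 and 0.21), which comes from the data and not from the labels. After the data were seen, 2 more were added, without SK RA 1 and WT HO 2 (high fat cell score) and without SK RA 1 and SK HO 1 (high median). Core motifs were searched on both strands of RefSeq promoter windows.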

Additional observations from a re-analysis of the deposited data

Results flagged for a closer look

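Cox6a2 was singled out because its response to hyperoxia differed between genotypes by a test of the difference itself. The SK response was smaller than the WT response by 1.86 on the log2 scale (-1.86, adjusted p = 0.00727 with limma), with all 3 WT HO lungs above all 3 SK HO lungs. The value ran from -2.09 to -1.68 over the 12 fits that each left out 1 array, all of which kept the call.

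Atp5k was singled out by the same test in the other direction. Its SK response exceeded its WT response by 0.86 (adjusted p = 0.0187 with limma), with SK HO above SK RA in 3 of 3 lungs and the WT groups overlapping. The call was lost without WT RA 1 (adjusted p = 0.0543), with the arrays centred on their median (0.0506) and with the fat cell score as a covariate (0.0744), and the value stayed between 0.76 and 0.94 in every alternative run.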

How the results depend on the processing

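No called result changed sign in any alternative run, and the medians over the 93 genes ran from 0.18 to 0.33 in WT HO against WT RA and from 0.17 to 0.34 in SK HO against SK RA over all alternatives. The WT median was 0.18 and the WT count 3 higher (Cox5a, Cox6a2 and Ndufa6) with the cardiac score as a covariate. Over all transcripts the WT count higher was then 1792, against 3547 in the main fit. That score itself separated the WT groups (0.18 to 0.35 in WT RA and -0.78 to -0.08 in WT HO). The fit can therefore not fully part it from oxygen in WT. The WT count was 8 without the 2 arrays of high fat cell score (2905 over all transcripts). It was 12 with arrays centred on the median (3036 over all transcripts) and 12 with the Y-linked covariate (3176). Counts of genes lower in WT were 2 under further quantile normalization, the Y-linked or fat cell covariate, the mean over transcripts, without the 2 arrays of high median, and with only the compared arrays. Counts higher in SK were 10 under the filter on low values and the mean over transcripts, 3 with arrays centred on the median, with the Y-linked or fat cell covariate and without the 2 arrays of high fat cell score, and 0 with only the 6 SK arrays (21 at an unadjusted p under 0.05). Over all transcripts the SK count higher was 422 in the main fit, 648 under the filter, and 208 to 306 in the alternatives with 3 members. Counts lower in SK were 2 under the mean over transcripts and without the 2 arrays of high median, and 0 with only the SK arrays (4 unadjusted). SK RA against WT RA had 1 lower (Atp5k) under further quantile normalization and the mean over transcripts. WT HO against SK HO had 2 higher under the filter on low values, further quantile normalization, the replicate block and the mean over transcripts. For the interaction 0 were higher with arrays centred on the median and with the fat cell covariate (Atp5k adjusted p = 0.0506 and 0.0744). Leaving out 1 array at a time gave 5 to 20 higher and 1 to 2 lower in WT, 3 to 9 higher and 1 to 2 lower in SK, 1 to 3 higher in WT HO against SK HO, and 0 to 1 higher in the interaction. Over all transcripts the same fits gave 2401 to 3981 higher in WT and 198 to 534 higher in SK. The causes were not tested.

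The labels number the replicates 1 to 3 in every group, but nothing says that a number marks a shared litter or day. Over 18 pairs of same-numbered arrays the deviations from group means correlated at -0.06 to 0.40 (median 0.10, against -0.05 for other pairs), and 7 of 12 arrays correlated best with their own number, a hint from the data and not from the design. All same-numbered pairs exceeded 0.1 between SK RA and SK HO, but not between any other groups, and the block was kept as an alternative. With the replicate block 23 genes were called higher and 1 lower in WT, and 7 and 1 in SK, where the added gene was Cox8a. The block left 0 called in SK RA against WT RA and 1 in each direction for the interaction. With 3 mice per group, the smallest difference called in WT was 0.48 (Cox8a).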
